A study of Mus musculus with 9 samples.

Results

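RNA of LSK cells from 3 mice carrying a histone H3.3 K36M transgene was compared with that of LSK cells from 3 control mice carrying rtTA alone. LSK cells are the bone marrow fraction without lineage markers and with Sca1 and cKit, and this fraction holds the blood stem cells and their early progeny. These are 6 of the 9 libraries of the study. Of 37882 genes in the deposited table, the 12467 with an RPKM of at least 1 in at least 3 of the 6 libraries were tested. RPKM is the number of reads scaled to transcript length and library size.

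All animals were of mixed B6/129 background, were 6 to 8 weeks old and drank water with doxycycline at 2 mg/ml and sucrose at 10 mg/ml. Control animals had rtTA, the activator that works only with doxycycline, at the Rosa26 locus. K36M animals had the same rtTA and in addition the H3K36M transgene at Col1a1. The 3 remaining animals, called K9M, had an H3K9M transgene at that position. Mac1, Gr1, B220, CD3e and Ter119 were the lineage markers used for depletion, and each library came from a separate mouse. No group carried unmutated H3.3 from a transgene, so the mutation and the carrying of a transgene cannot be told apart here. The labels name no driver restricted to blood cells, and the length of doxycycline treatment is not given in the sources used here.

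Histone H3 can be methylated on lysine 36. NSD family enzymes add the first methyl groups over broad regions, and SETD2 adds the last along transcribed gene bodies. H3.3 is the H3 variant that is placed into chromatin outside of DNA replication. When its lysine 36 is replaced by methionine, the altered histone blocks the methyltransferases, and methylation falls on unmutated H3 as well. In blood, H3K36 methyltransferases take part in stem cell maintenance and in lymphoid and myeloid differentiation.

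Between K36M and rtTA, 221 of the 12467 genes were called by limma at an adjusted p under 0.05, which is 1.77%. Of these, 82 were higher in K36M, or 0.658% of the genes tested, and 139 were lower, or 1.11%. The higher calls had a median log2 difference of 1.23 and the lower calls one of -0.94, against 0.02 over all genes tested. In all 221 the 3 K36M mice lay outside the range of the 3 rtTA mice, a separation that 22.5% of all tested genes showed. The falls held many genes of the rapid response to signals, such as Fos, Jun and Egr1. The rises held Ptgds, Car3, Hbb-bt and Cebpe. In these bulk libraries, more or fewer cells of a type cannot be told apart from more or less RNA per cell.

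The number of calls depended on single libraries. With 1 library left out at a time it ranged from 10 without K36M 1 to 448 without K36M 2, and it was 30 without rtTA 3 and 24 without K36M 3. A fit to the K36M and rtTA libraries alone called 26 genes. Replicates with the same number deviated together, and with the number as a block the count was 334 over all 9 libraries and 117 over the 6. Of the 50 calls among the genes named by rule, 6 held without each single library, namely H3f3c, Ptgds, Mrvi1, Car3, KCTD12 and Cd1d1. The other named calls were lost without at least 1 library, 44 of the 50 without K36M 1, 37 without K36M 3 and 37 without rtTA 3. In the fit to 2 groups 38 of the 50 were lost, with adjusted p up to 0.137, and with no filter on low values 27 were lost. All 50 remained with the block over 9 libraries, and 30 with the block over 6.

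**Figure D1:**
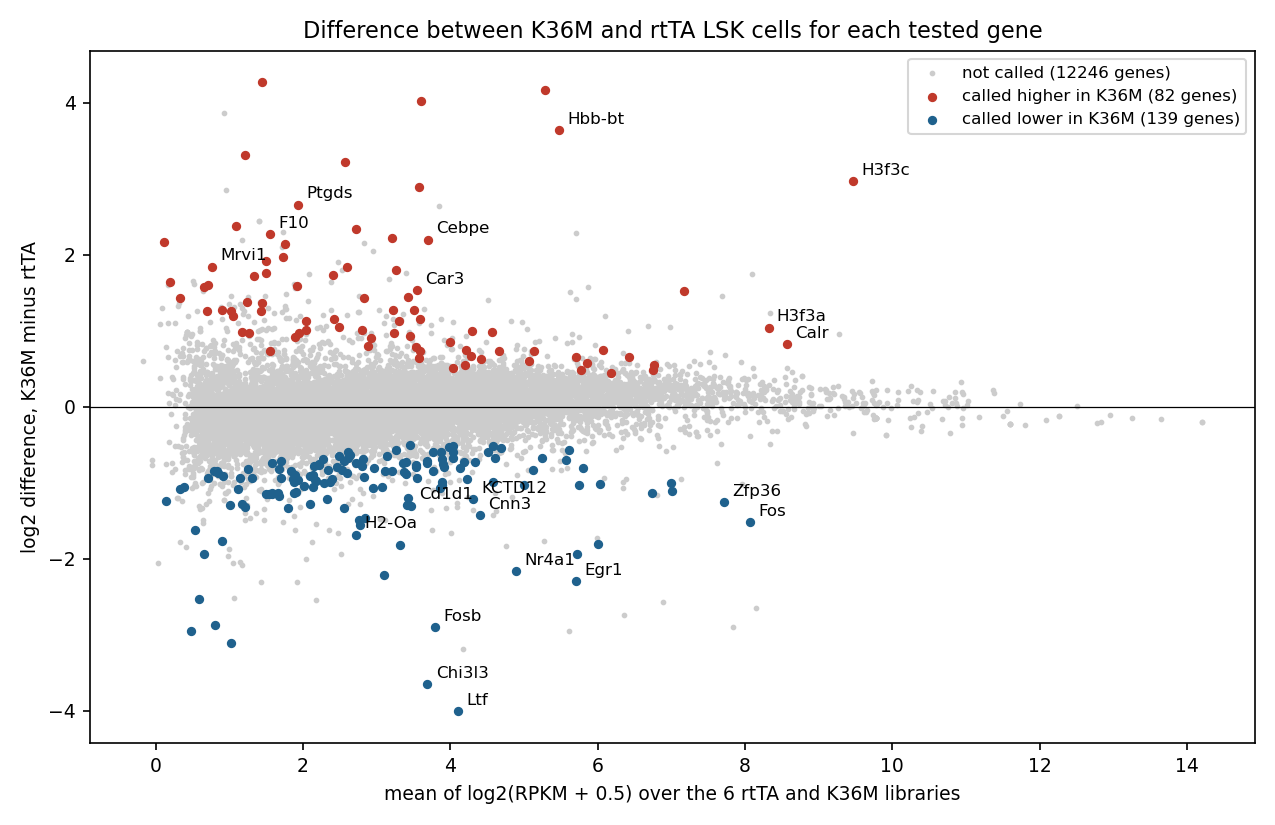
Each point is 1 of the 12467 tested genes, placed by its mean log2(RPKM + 0.5) over the 6 libraries and by its log2 difference between K36M and rtTA. The 82 genes called higher are red, the 139 called lower are blue, and Ltf at -4.01 and Hbb-bt at 3.64 are the labelled extremes.

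Library depth, read from the smallest steps of the RPKM values, was about 16580000, 33790000 and 24970000 reads in rtTA 1 to 3. It was about 40280000, 36880000 and 50310000 reads in K36M 1 to 3, so every K36M library was deeper than every rtTA library. The sort markers were present in all 6 libraries: Kit ranged from 53.3 to 102 RPKM and Ly6a, which encodes Sca1, from 119 to 292 RPKM. Of the lineage genes, Cd3e was at 0.168 RPKM or less. Cd79a of B cells reached 12.4 RPKM in rtTA 2. Ly6g, the neutrophil antigen, was at 42.1 RPKM in rtTA 3 but between 0.950 and 6.31 RPKM in the other 5. On the first principal component of the 9 libraries, with 26.2% of the variance, rtTA 1 lay at -29.7 beside the K9M libraries at -22.5 to -13.4, while rtTA 2 and 3 lay at 5.07 and 7.98. Without rtTA 1 the comparison gave 101 calls.

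The genes of H3.3 itself were examined first. H3f3a encodes H3.3 and lies on chromosome 1 from 180800832 to 180813943 (mm10). It was at 256, 192 and 224 RPKM in rtTA 1 to 3 and at 490, 409 and 480 RPKM in K36M 1 to 3. The groups did not overlap, and H3f3a was higher in K36M by 1.04 (SE 0.14) on the log2 scale, with an adjusted p of 0.0134 (limma). The call was lost without rtTA 3, K36M 1 or K36M 3, with an adjusted p of up to 0.0724. H3f3b, the second H3.3 gene, was at 271, 230 and 206 RPKM in rtTA and at 221, 213 and 178 RPKM in K36M. Its groups overlapped, with a log2 difference of -0.20 (adjusted p 0.446, limma).

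H3f3c is annotated as a processed pseudogene on chromosome 2 from 119665626 to 119666036. It rose from 214, 238 and 315 RPKM in rtTA to 2311, 1588 and 2115 RPKM in K36M, a log2 difference of 2.97 (SE 0.19, adjusted p 0.000407, limma). In K9M it was at 863 ± 53 RPKM (SD, n = 3), between the other groups. The transgene sequence was not used here, and how reads shared by near-identical copies were counted is not given in the sources used here. Reads of the transgene, of H3f3a and of its copies therefore cannot be told apart, and H3f3a-ps1, another processed pseudogene, was also called higher, by 2.37. Col1a1, the gene at the insertion site, was at 0.451 RPKM or less in all 6 libraries and was not tested.

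The 14 further genes of the list of H3.3 genes and deposition chaperones held no call, and 7 of the 15 had an unadjusted p under 0.05, all higher in K36M, where 10.5% of all genes were. Rbbp4, a histone-binding subunit shared by several complexes, was at 37.0 RPKM on average in rtTA and at 51.3 RPKM in K36M (log2 difference 0.46, adjusted p 0.0673, limma). Asf1b, a chaperone of newly made H3, differed by 0.47 (adjusted p 0.0819, limma). Among 29 methyltransferases, demethylases and readers of H3K36 methylation, limma called none, with 4 higher and 2 lower at an unadjusted p under 0.05, near the 10.5% and 8.92% of all genes. The list's median log2 difference was 0.06, against 0.02 over all genes.

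No writer of the mark was called. Nsd1 averaged 11.9 RPKM in rtTA and 15.6 RPKM in K36M, Whsc1 (Nsd2) 11.0 and 14.2 RPKM, and Setd2 13.03 and 14.2 RPKM, with adjusted p of 0.281, 0.237 and 0.791 (limma). The smallest p of the list was that of Zmynd11, a reader of trimethylated lysine 36 on H3.3. It was at 10.2, 15.6 and 14.2 RPKM in rtTA and at 7.15, 9.18 and 8.40 RPKM in K36M, which did not overlap (log2 difference -0.65, adjusted p 0.081, limma). No gene was called among 24 H3K9 methyltransferases, demethylases and HP1 genes, where limma gave 2 higher and 1 lower at an unadjusted p under 0.05.

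Of 34 Polycomb genes, 1 was called. Rnf2 encodes RING1B, the ubiquitin ligase of Polycomb repressive complex 1. It was at 29.7, 28.1 and 27.1 RPKM in rtTA and at 18.5, 19.7 and 20.5 RPKM in K36M. The groups were separate and narrow, and Rnf2 fell by 0.52 on the log2 scale (SE 0.09, adjusted p 0.0300, limma). Against K9M, at 26.4 ± 1.74 RPKM (SD, n = 3), the difference of K36M had an adjusted p of 0.0475 (limma). The call held in 1 of the 9 fits without a single library, that without K36M 2. The median over the Polycomb list was -0.03.

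Immediate early genes are switched on within minutes of a signal without new protein synthesis, and many encode transcription factors. Of 31 tested, 14 were called lower in K36M and none higher, where 1.11% of all genes were called lower. The median log2 difference was -0.91, and 30 of the 31 were negative, against 47.2% of all genes. In 18 of them every K36M mouse lay below every rtTA mouse, which 10.6% of all genes showed. The summed level of the list was 1661, 1861 and 1821 RPKM in rtTA and 834, 979 and 653 RPKM in K36M.

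The FOS and JUN proteins pair to form the AP-1 transcription factor. Fos, on chromosome 12 from 85473890 to 85477273, was at 468, 458 and 436 RPKM in rtTA and at 181, 197 and 112 RPKM in K36M. All K36M mice had less than every control, a log2 difference of -1.51 (SE 0.20, adjusted p 0.0152, limma). Fosb was at 28.4, 53.5 and 34.5 RPKM in rtTA and at 2.69, 10.2 and 3.34 RPKM in K36M. It fell by 2.90 (SE 0.49, adjusted p 0.0254, limma), the furthest of the list, and K36M 2 was the K36M mouse nearest to the controls. Jun was at 69.5, 133 and 117 RPKM in rtTA and at 27.0, 36.3 and 18.8 RPKM in K36M (log2 difference -1.94, adjusted p 0.0169, limma). Junb was at 173, 202 and 192 RPKM against 85.5, 108 and 72.6 RPKM (log2 difference -1.11, adjusted p 0.0152, limma), and Jund was also called, at -1.03.

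The EGR proteins are zinc finger factors, and Nr4a1 encodes an orphan nuclear receptor. Egr1, which also marks quiescent stem cells, was at 70.0, 134 and 163 RPKM in rtTA and at 20.6, 35.2 and 16.8 RPKM in K36M. Every K36M mouse was below every control, and the log2 difference was -2.30 (SE 0.33, adjusted p 0.0169, limma). Egr3 was at 1.49, 2.42 and 7.77 RPKM in rtTA and at 0.0701, 0.134 and 0.182 RPKM in K36M, with rtTA 3 far above the other controls (log2 difference -2.54, adjusted p 0.0444, limma). Every K36M value was below 1 RPKM, so Egr3 entered the test only through its rtTA libraries. Nr4a1 was at 42.2, 71.5 and 80.2 RPKM in rtTA and at 16.2, 18.0 and 8.44 RPKM in K36M. Nr4a1 fell by 2.16 (SE 0.30, adjusted p 0.0152, limma).

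The Krüppel-like factor Klf2 is known for its role in lymphocyte quiescence. It was at 9.70, 25.3 and 23.2 RPKM in rtTA and at 3.12, 5.38 and 2.43 RPKM in K36M (log2 difference -2.21, adjusted p 0.0300, limma). Klf4, Ier2, Ier5, Csrnp1 and Sik1 were called lower too, by between -0.73 for Csrnp1 and -1.30 for Sik1. Not every gene of the list differed: Myc was at 68.9, 109 and 103 RPKM in rtTA and at 72.7, 91.8 and 92.6 RPKM in K36M (log2 difference -0.11, adjusted p 0.788, limma). Atf3, Cyr61, Fosl1 and Id3 were highest in rtTA 1, and their groups overlapped. Srf, a factor that drives many immediate early genes, was the sole positive member, at 0.27 (adjusted p 0.307, limma).

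Genes that are induced in the same response and damp it again form a second list. Of 30 tested, 10 were called lower and none higher, where 1.11% of all genes were called lower. The median log2 difference was -0.71, and 29 of 30 were negative, against 47.2% of all genes. In K36M 20 were lower without overlap, which 10.6% of all genes showed. Zfp36 encodes tristetraprolin, which promotes decay of AU-rich messages. It was at 306, 322 and 346 RPKM in rtTA and at 128, 170 and 115 RPKM in K36M, clearly apart (log2 difference -1.25, SE 0.14, adjusted p 0.00873, limma). Dusp2, a nuclear phosphatase of MAP kinases, was at 88.2, 150 and 131 RPKM against 21.7, 52.6 and 34.2 RPKM (log2 difference -1.81, adjusted p 0.0242, limma).

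Among regulators of G protein signalling, Rgs1 and Rgs2 were called lower. Rgs1 was at 11.4, 27.1 and 19.3 RPKM in rtTA and at 3.17, 8.21 and 4.18 RPKM in K36M, and Rgs2 at 35.9, 48.1 and 53.2 RPKM against 20.5, 20.9 and 24.2 RPKM. Both were lower in each K36M mouse, with log2 differences of -1.81 (adjusted p 0.0423, limma) and -1.03 (adjusted p 0.0187, limma). The antiproliferative gene Btg2 was at 91.1, 87.1 and 101 RPKM in rtTA and at 48.6, 51.5 and 38.2 RPKM in K36M (log2 difference -1.01, adjusted p 0.0103, limma). Btg1, Trib1, Spry1, Nfkbiz and Tnfaip3 made up the other calls, at -0.76, -1.33, -1.04, -0.95 and -0.84.

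**Figure D2:**
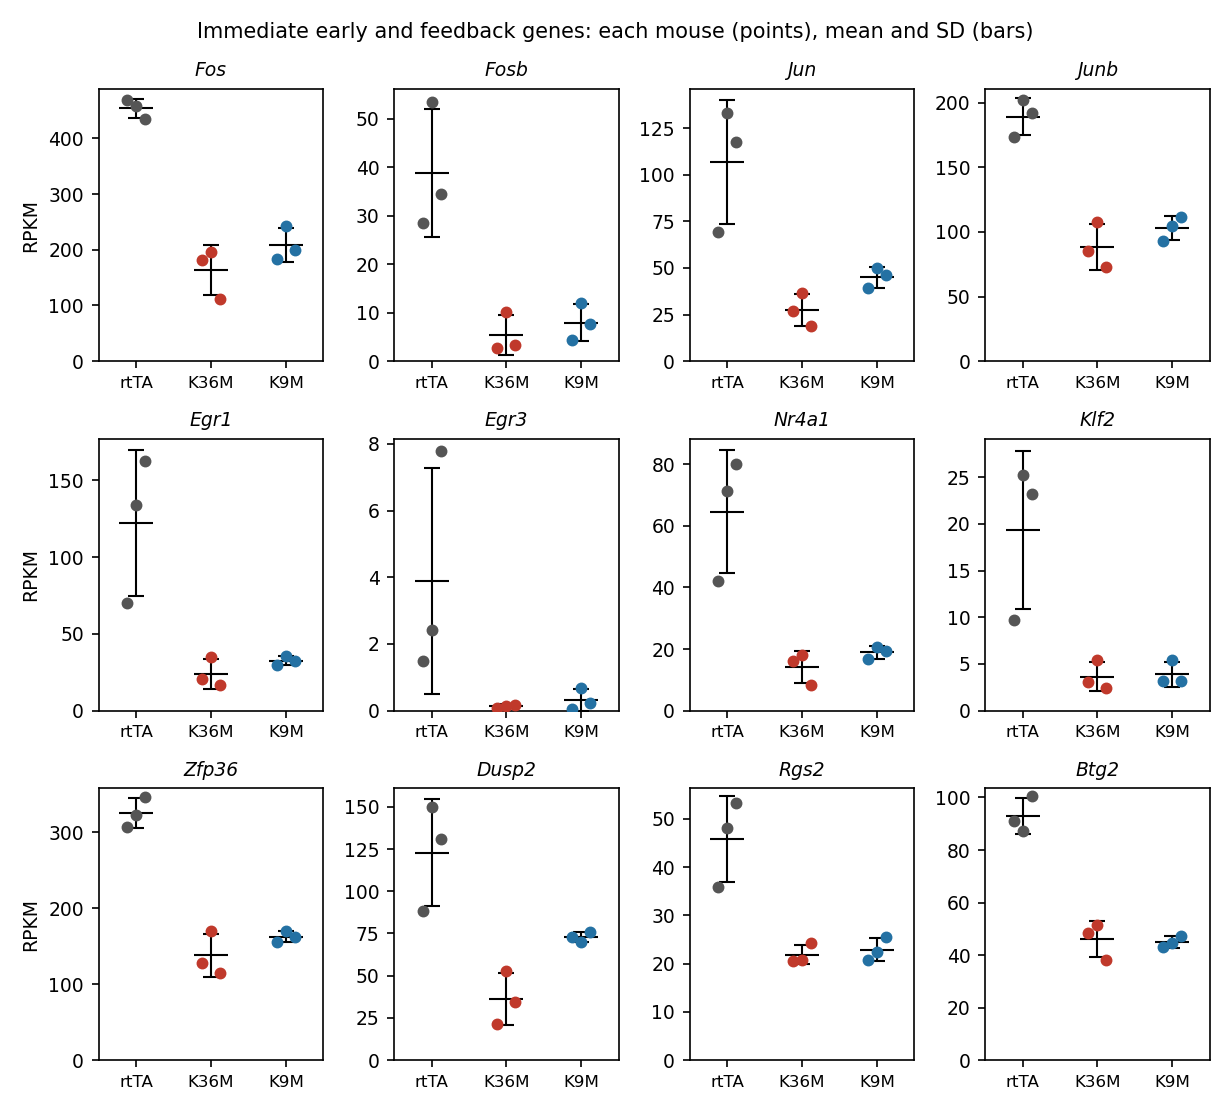
RPKM (vertical axes, each from 0) of 12 immediate early and feedback genes in each mouse of the rtTA, K36M and K9M groups, with the mean and SD as bars. In every panel the 3 K36M mice lie below the 3 rtTA mice, as with Fos at 112 to 197 against 436 to 468 RPKM.

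The number of calls in both lists moved with single libraries, while the size of the difference changed little. The number of called immediate early genes was 0 without K36M 1 and 0 without rtTA 3, 2 without K36M 3, 2 without rtTA 2 and 14 without K36M 2, while their median stayed between -0.78 and -0.98. The feedback list gave 0 calls without K36M 1, 2 without K36M 3, 2 without rtTA 3 and 3 without rtTA 2, and its median stayed between -0.60 and -0.84. Without a K9M library, which enters only the estimate of spread, 8 to 10 immediate early and 4 to 7 feedback genes were called. Fitted to K36M and rtTA alone, both lists gave 0 calls, and with the replicate block over those 6 libraries each gave 5.

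The K9M mice were also compared with rtTA at these genes, with the same control mice. In that comparison Btg2 passed (adjusted p 0.0323, limma), while Fos (adjusted p 0.118), Egr1 (0.118), Jun (0.283) and Zfp36 (0.0525) did not. Median log2 differences of K9M from rtTA were -0.66 for the immediate early list and -0.44 for the feedback list. Fos averaged 208 ± 30.6 RPKM (SD, n = 3) in K9M, Egr1 32.6 ± 2.96 RPKM and Btg2 45.0 ± 2.18 RPKM. Directly between the mutants, where 2.60% of all genes were called, limma called none of the 31 immediate early genes, and the median difference of K36M from K9M was -0.21. Of the 30 feedback genes 1 was called lower in K36M than in K9M, and the median difference was -0.24. The adjusted p between the mutants was 0.357 for Fos, 0.473 for Egr1, 0.187 for Jun and 0.940 for Btg2, which does not show that they were equal. A list of inducible heat shock genes, which also holds other chaperones, gave no call by limma among 18. The median was -0.06, but members went both ways, with 2 higher and 3 lower at an unadjusted p under 0.05. The 3 lower were Hspa1a (-1.08), Dnajb4 (-0.63) and Dnajb1 (-0.415), all without overlap. The 2 higher were Hsp90aa1 (0.50) and Hspa5 (0.35), both with overlap.

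Promoters of these genes were read from RefSeq (GRCm38.p6) to show what sequence they share in the 250 bases before the start. The letters TGACGTCA are the cyclic AMP response element, bound by CREB, and TGACG or its reverse complement CGTCA is its short form, so that the element always holds the short form. Below, capitals mark these letters. Fos and Nr4a1 are shown as fallen genes with repeated short forms and Btg2 as the fallen gene with the whole element, at chr12:85473640-85473889 on the plus strand, chr15:101266596-101266845 on the plus strand and chr1:134079156-134079405 on the minus strand.
Fos: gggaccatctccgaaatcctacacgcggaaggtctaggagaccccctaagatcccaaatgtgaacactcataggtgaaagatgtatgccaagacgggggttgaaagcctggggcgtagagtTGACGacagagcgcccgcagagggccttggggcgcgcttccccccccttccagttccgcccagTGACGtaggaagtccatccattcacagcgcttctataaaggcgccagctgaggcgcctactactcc
Nr4a1: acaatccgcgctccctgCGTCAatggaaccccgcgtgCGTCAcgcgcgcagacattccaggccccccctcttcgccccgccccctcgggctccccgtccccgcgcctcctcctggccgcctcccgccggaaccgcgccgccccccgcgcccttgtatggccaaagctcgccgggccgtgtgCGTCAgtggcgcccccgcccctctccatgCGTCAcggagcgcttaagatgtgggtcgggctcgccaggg
Btg2: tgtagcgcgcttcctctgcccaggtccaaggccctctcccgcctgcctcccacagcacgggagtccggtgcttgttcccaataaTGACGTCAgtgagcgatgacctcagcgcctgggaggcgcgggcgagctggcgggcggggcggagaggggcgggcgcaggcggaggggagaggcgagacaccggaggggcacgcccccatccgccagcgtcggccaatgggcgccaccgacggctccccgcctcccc

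The short form stood before 19.8% of the 27025 genes of the promoter table on either strand, 2 times in Fos and 4 times in Nr4a1. Of the 14 called immediate early genes 10 had a promoter in the table, and 7 of these held it. Egr1, Egr3, Ier2 and Sik1 had none in the table and were not searched. Among uncalled members of the same list the number was 8 of 12, a like share. Of the called feedback genes 4 of 7 held it, and of the uncalled ones 4 of 17. The whole element, in 1.77% of all genes of the table, was found in 1 called gene of both lists, Btg2, and in the uncalled Maff and Dusp1. The CArG box, the binding sequence of SRF, in 1.62% of all genes of the table, was likewise found in 1 called gene, Zfp36. It was also found in the uncalled Egr2, Srf and Dusp5. Sites more than 250 bases before the start were not searched, so the absence of a match does not show that a gene lacks the site. These matches describe letters in the window and say nothing of binding.

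Besides H3f3c, the calls on named genes that held without each single library included Ptgds, which encodes the lipocalin-type prostaglandin D2 synthase. Ptgds lies on chromosome 2 from 25466709 to 25470046. It was at 1.57, 0.859 and 0.735 RPKM in rtTA and at 9.16, 9.68 and 8.38 RPKM in K36M. The K36M values were narrow, and the group mean was 9.07 ± 0.651 RPKM (SD, n = 3) against 1.05 ± 0.449 RPKM. The log2 difference was 2.66 (SE 0.21, adjusted p 0.00156, limma), and against K9M, at 1.89 ± 0.332 RPKM, the adjusted p was 0.00801. It was the single call among 20 tested prostanoid and eicosanoid genes, whose median was 0.14.

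Car3 encodes a cytosolic carbonic anhydrase and lies on chromosome 3 from 14863512 to 14872523. It was at 6.78, 5.59 and 6.90 RPKM in rtTA and at 17.3, 21.3 and 19.9 RPKM in K36M. Car3 rose by 1.53 (SE 0.13, adjusted p 0.00156, limma), and K9M was at 7.35 ± 0.714 RPKM (SD, n = 3; adjusted p against K36M 0.00584). Mrvi1 encodes a partner of the inositol trisphosphate receptor and a target of cGMP-dependent kinase. It went from 0.279, 0.401 and 0.538 RPKM in rtTA to 2.49, 2.82 and 2.89 RPKM in K36M (log2 difference 1.84, adjusted p 0.00457, limma). Every rtTA value was below 1 RPKM, so Mrvi1 entered the test only through its K36M libraries. For Mrvi1 the K9M mice were also high, at 1.82 ± 0.198 RPKM, and differed from K36M with an adjusted p of 0.192 (limma).

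Among the falls, Cd1d1 and KCTD12 held without each single library. Cd1d1 encodes the molecule that presents lipid antigens to NKT cells. It was at 16.7, 19.09 and 14.9 RPKM in rtTA and at 5.61, 7.42 and 6.66 RPKM in K36M, without overlap (log2 difference -1.30, SE 0.14, adjusted p 0.00733, limma). KCTD12 encodes an auxiliary subunit of GABA-B receptors. It was at 27.3, 28.6 and 33.8 RPKM in rtTA and at 10.0, 13.9 and 14.1 RPKM in K36M (log2 difference -1.22, SE 0.14, adjusted p 0.01, limma). K9M was near rtTA for both, at 13.1 ± 1.33 and 29.4 ± 1.99 RPKM (SD, n = 3), and differed from K36M with adjusted p of 0.017 and 0.0114 (limma).

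Further immune and lipid genes fell in calls that were lost without K36M 1 and, for H2-Oa and Gbp2, also without K36M 3 or rtTA 3. H2-Oa, a subunit of the class II antigen-loading regulator H2-O, was at 13.4, 9.82 and 11.0 RPKM in rtTA and at 3.27, 3.00 and 3.28 RPKM in K36M (log2 difference -1.68, adjusted p 0.0134, limma). Cnn3, an actin-binding calponin and a gene of lymphoid priming, was at 36.3, 30.9 and 35.3 RPKM against 11.9, 14.8 and 10.8 RPKM (log2 difference -1.43, adjusted p 0.00783, limma). Neither overlapped between groups. Pctp, a phosphatidylcholine transfer protein, fell from 15.7 ± 0.661 to 7.99 ± 0.781 RPKM (SD, n = 3; adjusted p 0.00743, limma), and Gbp2, an interferon-induced GTPase, from 20.4 ± 2.48 to 9.99 ± 1.01 RPKM (adjusted p 0.0187). In K9M, Cnn3 was at 42.5 ± 7.39 RPKM and Gbp2 at 20.1 ± 3.15 RPKM, and K36M was lower than K9M with adjusted p of 0.00568 and 0.0188 (limma).

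Hbb-bt, an adult beta globin gene on chromosome 7, had the largest rise of the named genes. It was at 9.80, 12.4 and 14.4 RPKM in rtTA and at 206, 181 and 101 RPKM in K36M. All K36M mice were far above the controls, with a log2 difference of 3.64 (SE 0.59, adjusted p 0.0242, limma), and K9M ranged around 23.2 ± 17.2 RPKM (SD, n = 3). Of 28 tested erythroid genes it was the single call, and the median was 0.37. At an unadjusted p under 0.05, 8 were higher, where 10.5% of all genes were. The call was lost without any rtTA library, K36M 1 or K36M 3 (adjusted p up to 0.115). The other tested globin genes did not rise in this way, and their groups overlapped. Hbb-bs averaged 12.6 RPKM in rtTA and 17.5 RPKM in K36M (adjusted p 0.285, limma). Hba-a1 and Hba-a2 had log2 differences of -0.097 and 0.525. Globin copies are alike in sequence, so the split of reads among them is uncertain.

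**Figure D3:**
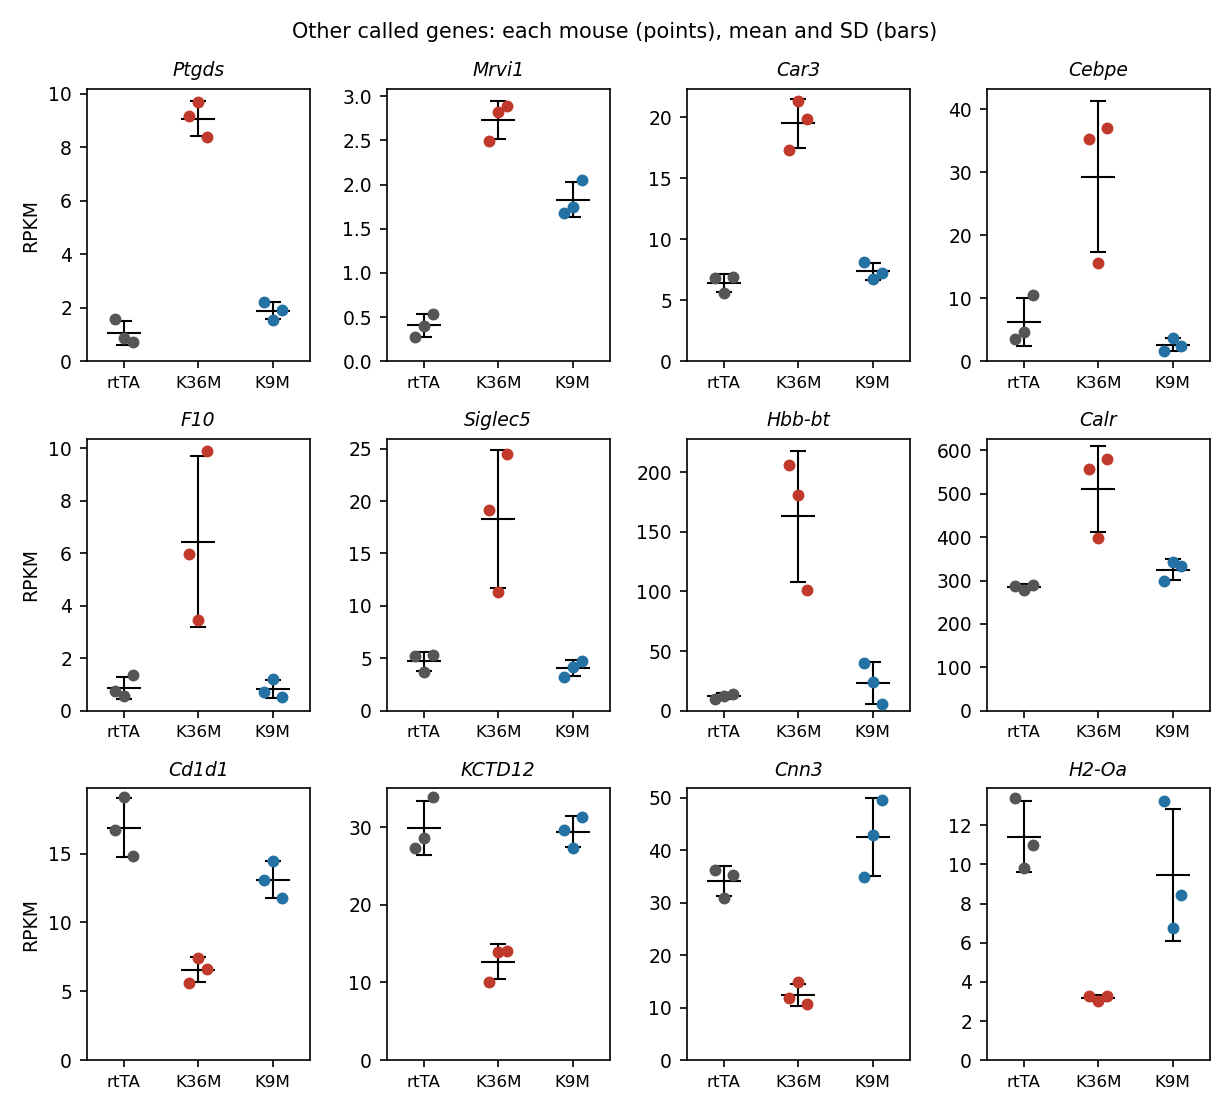
RPKM (vertical axes, each from 0) of 12 other called genes in each mouse of the 3 groups, with the mean and SD as bars. Ptgds, Mrvi1 and Car3 are tight and high in all K36M mice, and Cebpe, F10 and Siglec5 are lower in K36M 2 than in K36M 1 and 3.

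Granulocyte genes were examined in 2 lists, by stage of maturation. Primary granules are formed in promyelocytes and secondary granules later, in myelocytes and beyond. Of 23 tested primary granule and early granulocyte genes, 1 was called higher and 20 were positive, against 52.8% of all genes. At an unadjusted p under 0.05, 15 were higher, where 10.5% of all genes were. The median was 0.86. The mean log2 level of the list was 5.02, 5.04 and 5.71 in rtTA and 6.18, 5.31 and 6.45 in K36M, so that K36M 2 lay within the range of the controls. Without K36M 2, 10 of the list were called, and without any of the other 8 libraries 0 were.

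The called gene was Cebpe, the transcription factor of terminal granulocyte differentiation. It was at 3.46, 4.61 and 10.5 RPKM in rtTA, at 35.3, 15.5 and 37.0 RPKM in K36M and at 2.60 ± 1.05 RPKM (SD, n = 3) in K9M. Cebpe rose by 2.20 (SE 0.44, adjusted p 0.0472, limma), a call lost in 8 of the 9 fits without 1 library and kept without K36M 2, and differed from K9M with an adjusted p of 0.0145. Elane and Prtn3 encode neutrophil serine proteases. Elane was at 84.7, 165 and 236 RPKM in rtTA and at 634, 218 and 898 RPKM in K36M (log2 difference 1.74, adjusted p 0.247, limma). Prtn3 was at 128, 106 and 139 RPKM against 459, 171 and 501 RPKM (log2 difference 1.46, adjusted p 0.113, limma). Neither passed, and in both K36M 2 was close to the controls.

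Several called genes outside the list had the same order of K36M mice. Siglec5, a sialic acid binding receptor of myeloid cells, was at 5.22, 3.68 and 5.27 RPKM in rtTA and at 18.3 ± 6.58 RPKM (SD, n = 3) in K36M, with K36M 2 at 11.4 RPKM (log2 difference 1.80, adjusted p 0.0187, limma). F10, coagulation factor X, was at 0.735, 0.541 and 1.34 RPKM against 5.95, 3.45 and 9.89 RPKM (log2 difference 2.27, adjusted p 0.0242, limma). Klrb1f, a C-type lectin receptor of the natural killer gene cluster, was at 3.50, 1.77 and 2.23 RPKM against 16.1, 7.68 and 23.5 RPKM (log2 difference 2.35, adjusted p 0.0218, limma). In all 3, and in Gdf3 and Ncam1, K36M 2 was lowest of its group and above every control. Gdf3, a TGF-beta family ligand, rose by 2.15 and Ncam1, an adhesion molecule, by 1.92. All 5 were higher in K36M than in K9M, with adjusted p between 0.0126 for Siglec5 and 0.0292 for Gdf3 (limma).

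Of 27 secondary granule and mature neutrophil genes 2 were called lower, Ltf and Chi3l3, where 1.11% of all genes were. The median was -0.92. Ltf encodes lactoferrin. It was at 42.6, 27.8 and 272 RPKM in rtTA and at 6.05, 2.61 and 3.39 RPKM in K36M, with rtTA 3 far above the others (log2 difference -4.01, SE 0.73, adjusted p 0.0356, limma). Chi3l3, a chitinase-like protein, was at 28.4, 20.8 and 156 RPKM against 4.74, 2.05 and 3.10 RPKM (log2 difference -3.66, adjusted p 0.0322, limma). The summed level of the list reached 7536 RPKM in rtTA 3 and lay between 540 and 1055 RPKM in K36M. Ltf and Chi3l3 were called without rtTA 2 or rtTA 3, and both calls were lost without any of the other 7 libraries. The list's median was -0.52 without rtTA 3, and without K36M 2 it was -0.68, with 2 members called higher and 0 lower. Members of the list did not go one way: Hp, haptoglobin, was at 18.3, 13.7 and 49.4 RPKM in rtTA and at 188, 49.8 and 164 RPKM in K36M (log2 difference 2.29, adjusted p 0.0816, limma). Mature neutrophils carry Gr1, which the sort was meant to remove, and the part of such cells in these differences was not tested.

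**Figure D4:**
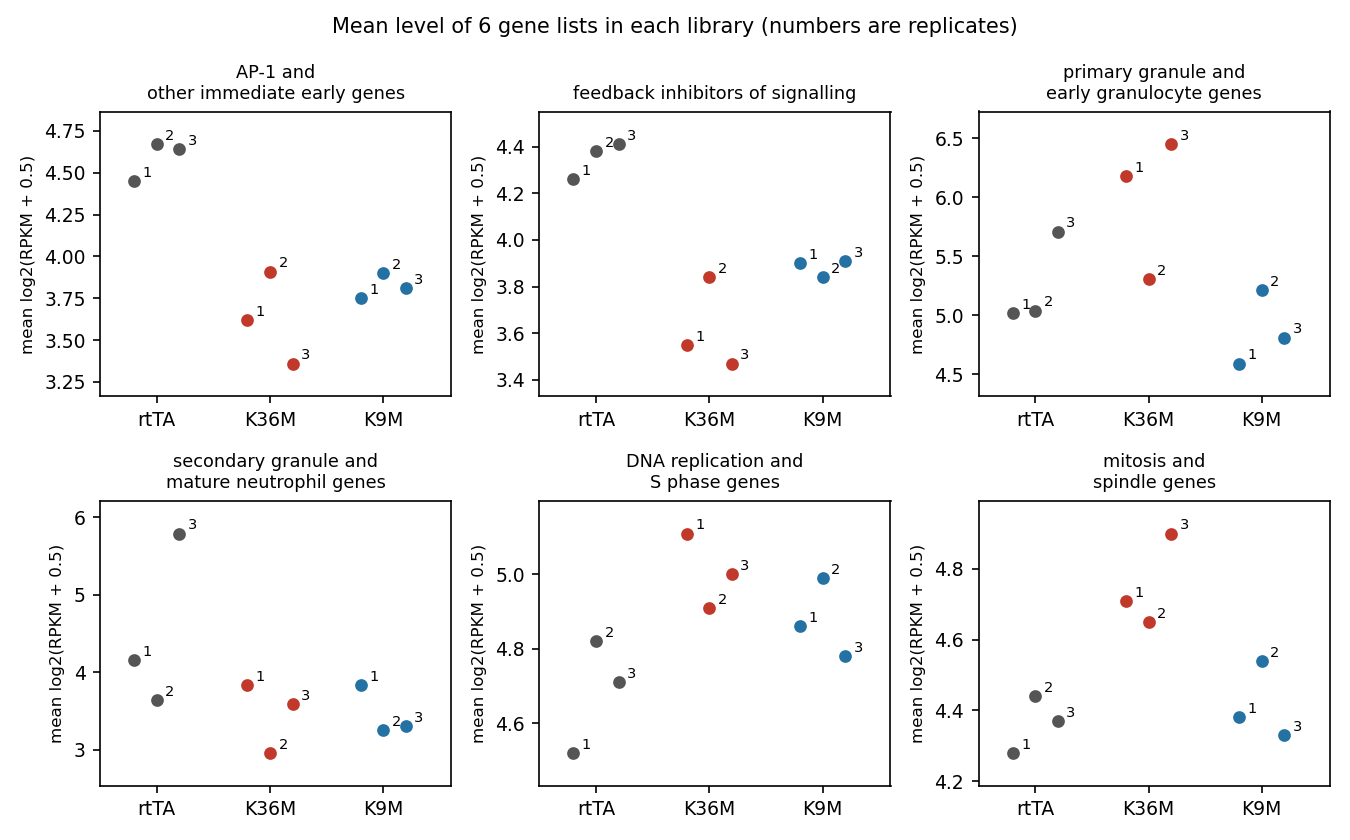
Mean log2(RPKM + 0.5) (vertical axes, which do not start at 0) of the members of 6 gene lists in each library, with the replicate number beside each point. For both response lists all K36M libraries lie below all rtTA libraries, for the primary granule list K36M 2 at 5.31 lies below rtTA 3 at 5.71, and for the secondary granule list rtTA 3 at 5.79 stands above all others.

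Other myeloid and platelet genes gave single calls. Of 27 monocyte, macrophage and dendritic genes Klf4, which is also in the immediate early list, and Cd68 were called lower, where 1.11% of all genes were. The median was 0.01, and uncalled members went both ways. Ccl9 was higher by 1.57 (adjusted p 0.0749, limma) and Cd74 lower by 1.19 (adjusted p 0.106, limma), both without overlap. Cx3cr1 was higher by 1.32, with overlap (adjusted p 0.13, limma). Cd68, a lysosomal protein of macrophages, was at 7.31, 8.36 and 11.5 RPKM in rtTA and at 2.24, 4.89 and 2.98 RPKM in K36M (log2 difference -1.34, adjusted p 0.0403, limma). Selp, the P-selectin of platelets and endothelium, was at 1.51, 0.665 and 1.54 RPKM in rtTA and at 7.56, 4.18 and 7.12 RPKM in K36M. It rose by 1.97 (adjusted p 0.021, limma), the single call of 29 megakaryocyte and platelet genes, whose median was -0.02. Limma called none of 14 mast cell, basophil and eosinophil genes (2 higher and 3 lower at an unadjusted p under 0.05) and none of 12 stroma and endothelium genes (2 and 2).

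Stem cell genes showed few calls and mostly negative differences. Of 37 long-term HSC genes, 28 were negative, against 47.2% of all genes, and the median was -0.26. At an unadjusted p under 0.05, 11 were lower, where 8.92% of all genes were. Without K36M 1 the median was -0.13. Egr1, described above, was called lower, and Ndn was called higher. Ndn encodes necdin, an imprinted growth suppressor linked to stem cell quiescence. It was at 2.55, 4.13 and 2.76 RPKM in rtTA and at 6.32, 10.3 and 6.35 RPKM in K36M, with replicate 2 highest in both groups (log2 difference 1.15, adjusted p 0.0449, limma). The call on Ndn was lost whichever single library was left out (adjusted p up to 0.138, limma). Hoxa10, a homeobox factor of stem and progenitor cells, fell from 2.35, 3.47 and 2.24 RPKM to 0.543, 1.29 and 0.642 RPKM (log2 difference -1.29, adjusted p 0.041, limma). It was the single call of 11 Hox genes and cofactors, 9 of which were negative, against 47.2% of all genes. K36M was lower than K9M for Hoxa10 with an adjusted p of 0.0321 (limma). Hoxa9 averaged 13.9 RPKM in rtTA and 8.63 RPKM in K36M (log2 difference -0.63, adjusted p 0.113, limma).

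No HSC or progenitor surface marker was called by limma among 28, with 2 higher and 9 lower at an unadjusted p under 0.05. Kit, the receptor on which cells were sorted, was at 88.1, 95.5 and 102 RPKM in rtTA and at 53.3, 71.1 and 74.2 RPKM in K36M. Each K36M mouse was below each control, with a log2 difference of -0.54 (SE 0.14, adjusted p 0.0873, limma). With the replicate block over all 9 libraries the adjusted p of Kit was 0.0488, with the block over the 6 libraries it was 0.0746, and in the fit to 2 groups it was 0.205. Ly6a was at 292, 125 and 120 RPKM in rtTA and at 192, 154 and 119 RPKM in K36M, which overlapped (log2 difference -0.10, adjusted p 0.896, limma).

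Lymphoid genes gave few calls. Of 18 B lineage genes limma called none, and 15 were negative, against 47.2% of all genes. At an unadjusted p under 0.05, 7 were lower, where 8.92% of all genes were. The median was -0.74, or -0.43 without K36M 1. Cd79a, a subunit of the B cell receptor, was at 5.80, 12.4 and 9.25 RPKM in rtTA and at 2.78, 5.78 and 5.46 RPKM in K36M, just short of overlapping (adjusted p 0.173, limma). The K9M mice had a median of -1.05 against the same controls on this list. Of 24 lymphoid priming genes Cnn3 was called lower and the median was -0.21. Dntt, the terminal transferase of early lymphoid cells, was at 227, 155 and 208 RPKM in rtTA and at 102, 94.3 and 103 RPKM in K36M (log2 difference -0.95, adjusted p 0.0947, limma). Of 13 T and NK lineage genes Tcf7 fell, by 1.16 (adjusted p 0.0264, limma), and Il18r1 rose. Over all genes, 1.11% were called lower and 0.658% higher. Il18r1, the interleukin 18 receptor, was at 2.91, 1.82 and 2.56 RPKM in rtTA and at 8.01, 9.04 and 10.6 RPKM in K36M (log2 difference 1.74, adjusted p 0.021, limma). Antigen receptor gene segments stood out by class, with 4 of 27 called lower, 14.8%, against 1.11% of all genes. Among them were Tcrg-C1 at -2.87 and Trbj1-1 at -2.96.

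Proliferation genes had 1 call between mitosis and S phase genes, with differences that were small and mostly positive. Of 42 mitosis and spindle genes all 42 were positive, against 52.8% of all genes, 32 were higher at an unadjusted p under 0.05, and 1 was called. The median was 0.39. Prc1, a crosslinker of the central spindle, was at 12.9, 14.0 and 12.9 RPKM in rtTA and at 17.7, 19.06 and 20.9 RPKM in K36M (log2 difference 0.51, adjusted p 0.0459, limma). The call on Prc1 was lost whichever single library was left out (adjusted p up to 0.169, limma). Of 46 DNA replication and S phase genes limma called none, 45 were positive, 28 were higher at an unadjusted p under 0.05, and the median was 0.31, with a range from -0.07 for Rfc4 to 0.70 for Ccne2. Ccne2, cyclin E2, had the smallest p of these, at 6.05, 9.46 and 6.96 RPKM in rtTA and 13.01, 11.6 and 12.2 RPKM in K36M (log2 difference 0.70, adjusted p 0.0608, limma). Protein-coding genes with a level above 27 RPKM had a median of 0.14 as a class. Members below that level included Prc1, in a class with a median of 0.07, and Ccne2, in a class with a median of 0.04. A part of expression level in these differences was not tested. Among 21 G1 cyclins, CDKs and inhibitors, Ccnd1 was called. Ccnd1, cyclin D1, was at 12.1, 11.1 and 11.1 RPKM in rtTA, at 20.4, 20.4 and 22.3 RPKM in K36M and at 19.8 ± 1.99 RPKM (SD, n = 3) in K9M (log2 difference of K36M from rtTA 0.85, adjusted p 0.0103, limma).

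Chaperones of the endoplasmic reticulum had 1 call. Of 22, 19 were positive, against 52.8% of all genes, and 15 were higher at an unadjusted p under 0.05, against 10.5%. The median was 0.41, and Calr was called. Calr, calreticulin, was at 288, 278 and 291 RPKM in rtTA and at 557, 398 and 581 RPKM in K36M (log2 difference 0.82, SE 0.15, adjusted p 0.038, limma). K36M 2 was again nearest to the controls, and without it 8 of the list were called, against 0 without any of the other 8 libraries and 0 in the fit to 2 groups. Sdf2l1, a lumenal cofactor, was at 28.8, 42.8 and 36.4 RPKM against 81.8, 51.0 and 80.0 RPKM (log2 difference 0.96, adjusted p 0.05002, limma).

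**Figure D5:**
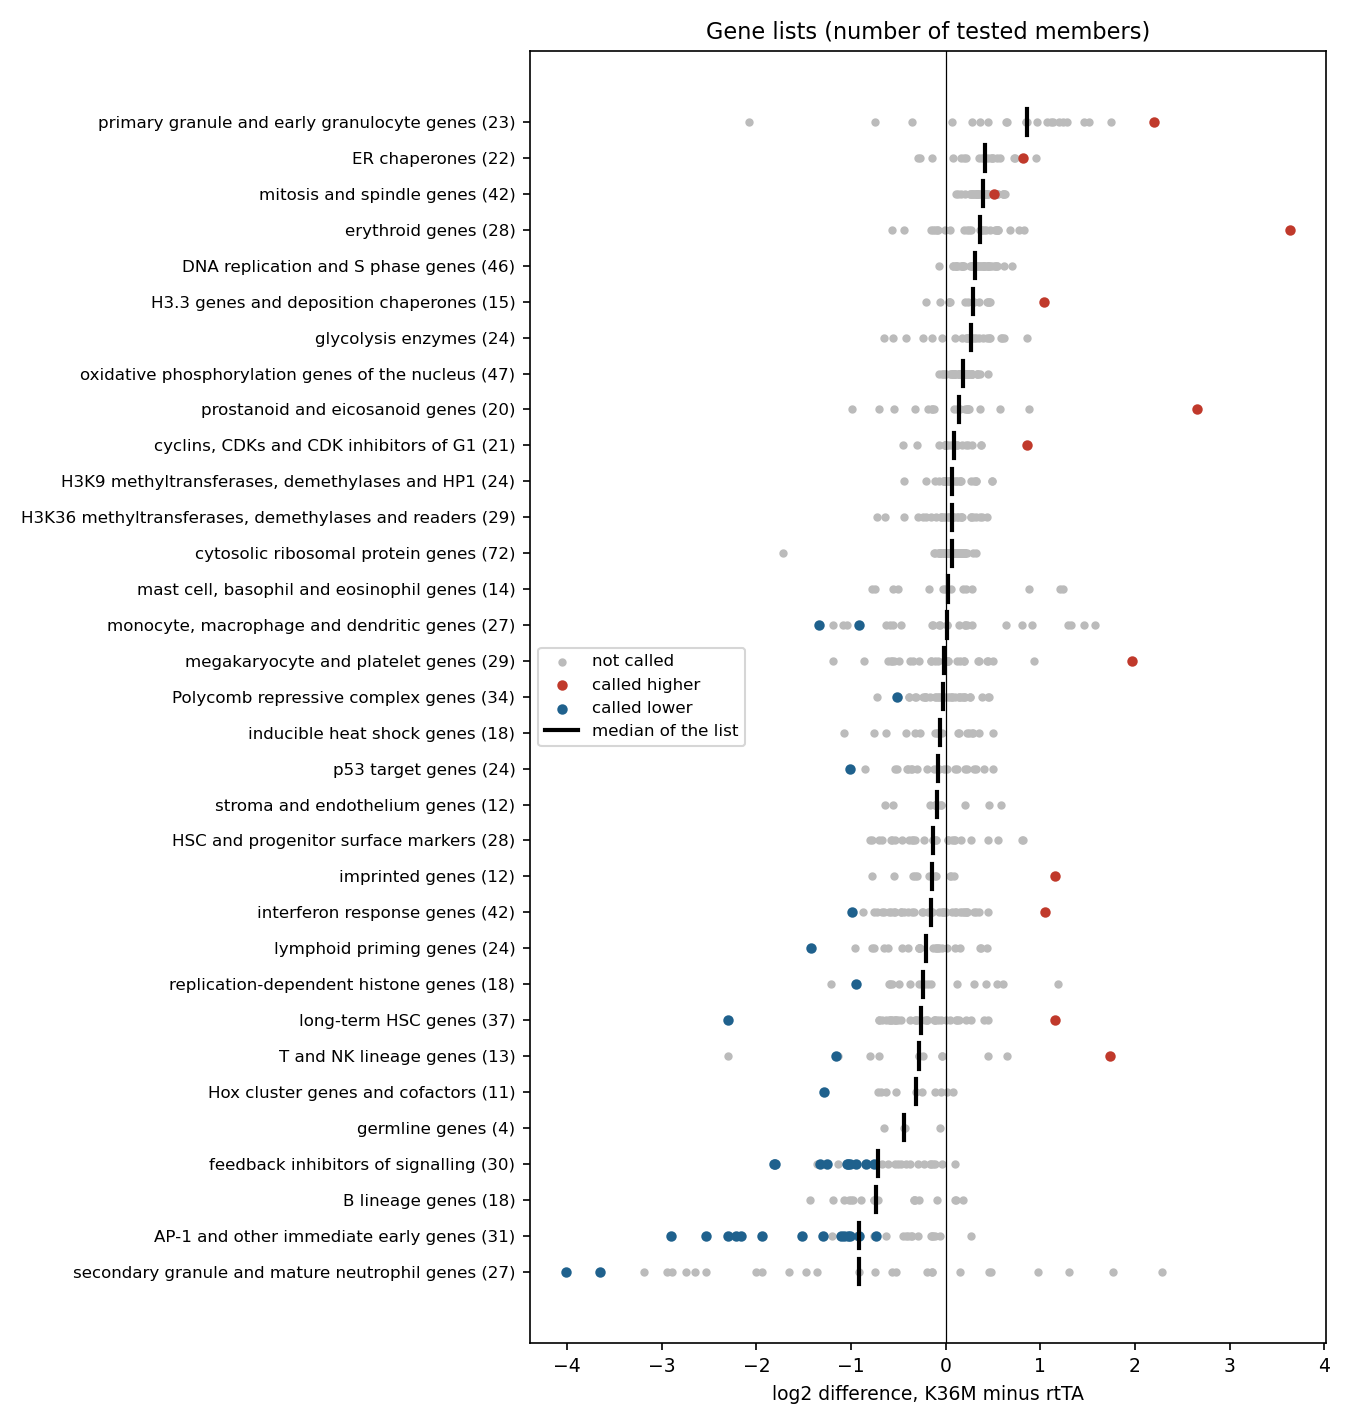
Log2 difference between K36M and rtTA (horizontal axis) of every tested member of 33 gene lists, 1 list per row with the number of tested members, members called higher in red, called lower in blue, and a black bar at the list's median. Called members lie mostly in the immediate early list, with 14 of 31, and the feedback list, with 10 of 30, and most other lists hold 1 call or none.

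The remaining named calls were scattered over several lists or belonged to none. Akr1c12, an aldo-keto reductase, was at 2.78, 2.40 and 2.93 RPKM in rtTA and at 11.9, 13.1 and 8.40 RPKM in K36M, and K9M averaged 11.99 ± 4.63 RPKM (SD, n = 3). Akr1c12 rose by 1.84 (adjusted p 0.0152, limma), and K36M against K9M had an adjusted p of 0.92. Fxyd1, a regulator of the sodium pump, rose by 1.76 (adjusted p 0.0242, limma), and Sema3d, a secreted guidance cue, fell by 1.76 (adjusted p 0.0242, limma). Of 42 interferon response genes Xaf1 rose by 1.05 and Gbp2 fell by 0.99, and the median was -0.16. The linker histone gene Hist1h1c fell by 0.95 (adjusted p 0.0218, limma), the single call of 18 replication-dependent histone genes. Limma called none of 72 ribosomal protein genes, where 0 were higher and 1 lower at an unadjusted p under 0.05. It called none of 24 glycolysis enzymes (9 higher and 3 lower) and none of 47 oxidative phosphorylation genes (3 higher and 0 lower).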

How the data were processed

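Gene expression was measured by RNA sequencing of sorted LSK cells, 1 library per mouse, with 3 rtTA, 3 K36M and 3 K9M mice taken from the sample titles. The authors deposited 1 table of RPKM values for 37882 genes. CASAVA 1.7 and STAR were used with the mm10 build, per the submitters' processing notes. The STAR version, the counting tool, the annotation and the treatment of reads matching several places are steps not given in the sources used here. A polyA RNA molecule type and a kit for total RNA both appear in the labels. Values were 0 throughout for 12058 genes, no pair of libraries was identical, and 0 columns were left unmapped. Identifiers were matched to GENCODE M21 on mm10 for 37607 genes, which gave coordinates and classes.

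RPKM hides depth. Steps of the lowest values gave approximate read numbers, with 50.4% to 52.0% of values whole within 0.02 against 4% by chance, so no count test was run.

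Values were analysed as log2(RPKM + 0.5), a scale that understates changes of low genes. Some called genes, such as Mrvi1, Ptgds, F10 and Egr3, would not have passed the filter without the group where they were high. The 9 libraries entered 1 linear model of group means (limma 3.58.1, R 4.3.3; eBayes with a trend; 6 residual and 3.18 prior degrees of freedom). A two-sided p under 0.05 after Benjamini-Hochberg adjustment over all 12467 genes made a call. Errors of log2 differences are limma's standard errors. Tested on simulated data for this comparison over 12467 genes, the fit recovered 64 of 100 changes of 2-fold and 92 of 100 changes of 4-fold. It called 4 unchanged genes. The simulated noise was independent between libraries and lacked the shared deviations of same-numbered replicates. These numbers therefore do not tell how the fit performed on the real libraries.

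The comparison and the 33 gene lists were chosen with earlier results of these data known. Lists had 1062 entries, of which 14 were not matched, and 58 genes stood in more than one list. Lists are described by counts and medians with no test. For every list, the share of all genes at an unadjusted p under 0.05 was 10.5% higher and 8.92% lower. The share of all genes called was 0.658% higher and 1.11% lower. Positive differences made up 52.8% of all genes and negative ones 47.2%. Named genes were, by log2 difference, the top 12 rises and top 12 falls of the called protein-coding genes with a proper symbol and no overlap between groups, the 5 with the smallest p, up to 10 whose call held without each single library, up to 4 called members of each list or else up to 2 uncalled ones, and H3f3a, H3f3b, H3f3c, Col1a1, Kit and Ly6a. Other genes named, such as Myc, Srf, Elane, Prtn3, Hp, Hoxa9, Dntt, Nsd1, Setd2 and Sdf2l1, were chosen after their values were seen.

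Same-numbered K36M and rtTA libraries had deviations from the group means that correlated across genes at 0.430, 0.384 and 0.405, against -0.405 to 0.0301 for other pairs. All were over 0.1, so the numbers pair the samples by these data and not by the labels. Deviations within a group sum to 0, which pulls the other pairs below 0. Promoter sequences were taken from RefSeq (GRCm38.p6). Alternatives changed the pseudocount, the filter, the scaling, the prior, the weights of libraries or the block, or used fits to 2 groups, a 2-fold minimum, no pseudogenes and leaving out each library.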

Additional observations from a re-analysis of the deposited data

How the results depend on the processing

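The count of 221 called genes was recomputed under each alternative. It stayed within 1.5 times with pseudocounts of 0.1 and 1 (201 and 223), with the filter over 9 libraries (194), with median-ratio and quantile scaling (227 and 241), without the trend, with robust priors and with library weights (261, 227 and 192), and with pseudogenes left out (281). It was 81 with no filter, 141 with an RPKM minimum of 5, 131 after rescaling to protein-coding genes, 26 in the fit to 2 groups and 4 with a 2-fold minimum. Those 4 were Ptgds, H3f3c, Eif5al3-ps and Gm6421. Leaving out 1 library gave between 10 and 448 calls. With the replicate block the count was 334 over all 9 libraries, keeping 202 of the 221 calls, and 117 over the 6 libraries, keeping 76. Without each library in turn 10 of the 221 held throughout. The share of calls that were higher was 37.1% as deposited and between 36.6% and 39.7% under the 3 other scalings. The causes of these changes were not tested, except that no filter means more genes tested and left-out libraries mean fewer samples. Depth limits genes of low level: 1 read in a transcript of 1 kb was worth 0.0199 RPKM in K36M 3 and 0.0603 RPKM in rtTA 1.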

Other observations

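The difference between K36M and rtTA was also described by the level and length of protein-coding genes. Split by mean level into 5 equal classes, the median log2 difference was -0.14, -0.06, 0.04, 0.07 and 0.14 from the lowest to the highest class. Positive genes made up 33.6% of the lowest class and 75.1% of the highest. For K9M against the same controls the medians were -0.06, -0.06, -0.02, 0.01 and 0.08. In the highest class the deviation from the mean of all libraries was 0.18, -0.01 and 0.05 in K36M 1 to 3 and -0.01, -0.11 and -0.09 in rtTA 1 to 3, and in K36M 2 it was between -0.01 and 0.00 in every class. The class of the longest genes, spanning 61950 bases or more, had a median of -0.07 with 39.6% positive, against 0.04 to 0.06 in the 4 shorter classes. For these longest genes the groups overlapped, with deviations of -0.15, -0.05 and 0.09 in K36M 1 to 3 and -0.10, 0.05 and 0.15 in rtTA 1 to 3. Within the 5 level classes, from lowest to highest, the median was -0.06, -0.07, 0.02, 0.05 and 0.12 for the shortest genes and -0.21, -0.12, -0.01, 0.00 and 0.07 for the longest.

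The 13 protein-coding genes of the mitochondrial genome were all lower in K36M, with a median of -0.24, and none was called by limma. K9M had a median of -0.26 against the same controls, and the median difference of K36M from K9M was 0.02. The deviation of these 13 genes from the mean of all libraries was 0.38 in rtTA 1 and -0.29 in K36M 1, and it was between -0.15 and 0.08 in the other 7. By gene class, 9 of 907 pseudogenes were called higher, or 0.992%, and 3 of 305 long noncoding or unclassified genes, or 0.984%. Both shares were near the 0.658% of all genes called higher. In both classes 0 were called lower, where 1.11% of all genes were. Limma called none of 257 small RNA and other genes. Several of the called pseudogenes, such as Eif5al3-ps at 4.03 and Gm15432 at 4.27, may share reads with a parent gene, and their values are uncertain.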
